A study of Mus musculus with 2 samples.

Results

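Genes of mitochondrial fusion and fission were followed in the gastrocnemius, the large calf muscle, of the mouse: the fusion genes Mfn1, Mfn2 and Opa1, the inner membrane protease genes Oma1 and Yme1l1, and the fission genes Dnm1l, Fis1 and Mff. They were taken by gene symbol and not by a rule on their levels, although earlier results of these data were known at the time. All 8 members, of 55536 annotated genes, were measured in both libraries. Total RNA was sequenced from the gastrocnemius of 2 male mice of the strain B6CASTF1/J (B6Cast F1, the first-generation cross of C57BL/6J and CAST/EiJ), 25 days old and supplied by The Jackson Laboratory. From 300 ng of RNA, 1 library was made per animal, with spike-in RNAs meant for stranded libraries depleted of ribosomal RNA. The labels number the tissues as different males but give both the same donor entry, so the spread below is that between 2 samples which may share more than a strain. The samples form 1 group with no treatment, so no condition is compared.

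Mitochondria of a muscle fibre form a network that is remodelled by opposed membrane reactions. The mitofusins MFN1 and MFN2, GTPases of the outer membrane, join the outer membranes of neighbouring mitochondria, and MFN2 is also known as a tether between mitochondria and the endoplasmic or sarcoplasmic reticulum. OPA1, a dynamin-related GTPase, then fuses the inner membranes and holds the cristae in shape, and the metalloproteases OMA1 and YME1L cut its long forms into short ones. Division is carried out by DRP1, the product of Dnm1l, a cytosolic dynamin-related GTPase that assembles around the mitochondrion after binding adaptors in the outer membrane. MFF is a main adaptor in mammals, and FIS1 is a tail-anchored outer membrane protein whose yeast counterpart recruits the division machinery.

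Opa1 and Dnm1l are known for alternative coding exons, and the exons that the transcript results turn on are shown here. They are given 5′ to 3′ on the coding strand, from the GENCODE M21 transcript models on mm10, with the exon in capitals and 12 bases of the neighbouring exons in lower case. These are the letters of the reference genome. The animals also carry a CAST/EiJ copy, whose letters were not read. The Opa1 exon of 54 bases, known as exon 4b, lies at chr16:29588823-29588876 on the plus strand and adds 18 residues. The Opa1 exon of 111 bases, known as exon 5b, lies at chr16:29597586-29597696 and adds 37 residues, and YME1L is known to cut OPA1 within its product. The Dnm1l exon of 39 bases lies at chr16:16342697-16342735 on the minus strand and adds 13 residues to the GTPase domain. The Dnm1l exons of 78 and 33 bases lie at chr16:16318764-16318841 and chr16:16318445-16318477 and add 26 and 11 residues to the variable domain near the C-terminal end.
Opa1 exon of 54 bases: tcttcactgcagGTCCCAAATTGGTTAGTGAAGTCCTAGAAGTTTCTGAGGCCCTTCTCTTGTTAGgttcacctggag
Opa1 exon of 111 bases: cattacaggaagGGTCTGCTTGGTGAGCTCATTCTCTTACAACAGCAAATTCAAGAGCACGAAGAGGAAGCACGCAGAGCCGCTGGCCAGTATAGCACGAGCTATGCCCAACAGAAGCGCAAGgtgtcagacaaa
Dnm1l exon of 39 bases: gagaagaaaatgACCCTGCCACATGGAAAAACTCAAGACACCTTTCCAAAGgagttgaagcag
Dnm1l exon of 78 bases: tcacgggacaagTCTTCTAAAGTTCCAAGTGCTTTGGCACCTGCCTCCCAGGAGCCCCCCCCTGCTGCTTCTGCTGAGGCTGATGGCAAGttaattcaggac
Dnm1l exon of 33 bases: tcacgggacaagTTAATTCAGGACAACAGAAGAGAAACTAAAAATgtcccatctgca

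Mff, the adaptor gene, also has cassette exons, and 2 of them split its main transcript models. The exon of 75 bases lies at chr1:82737013-82737087 and that of 159 bases at chr1:82741818-82741976, both on the plus strand of mm10. They add 25 and 53 residues.
Mff exon of 75 bases: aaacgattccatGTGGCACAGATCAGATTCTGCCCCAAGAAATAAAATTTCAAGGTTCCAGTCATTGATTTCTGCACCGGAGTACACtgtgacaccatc
Mff exon of 159 bases: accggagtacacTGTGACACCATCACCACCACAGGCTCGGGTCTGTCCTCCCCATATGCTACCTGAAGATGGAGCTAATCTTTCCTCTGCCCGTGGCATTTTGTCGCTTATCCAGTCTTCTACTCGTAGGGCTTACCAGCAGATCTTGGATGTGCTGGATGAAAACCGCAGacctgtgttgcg

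The promoter table gives 2 starts for Fis1, those of its 2 most abundant coding models, and the quantifications described below split the RNA between these models differently. The 250 bases before each are shown, with CpG dinucleotides in capitals. They come from the RefSeq promoter table on GRCm38.p6, plus strand. The window before the start of the transcript model Fis1-202 is chr5:136953025-136953274, and that before Fis1-201 is chr5:136961827-136962076.
Before Fis1-202: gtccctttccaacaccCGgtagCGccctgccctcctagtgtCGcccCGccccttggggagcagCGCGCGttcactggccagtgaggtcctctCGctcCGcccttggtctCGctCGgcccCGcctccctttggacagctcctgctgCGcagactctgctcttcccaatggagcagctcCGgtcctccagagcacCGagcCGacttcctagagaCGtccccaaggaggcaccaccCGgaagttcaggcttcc
Before Fis1-201: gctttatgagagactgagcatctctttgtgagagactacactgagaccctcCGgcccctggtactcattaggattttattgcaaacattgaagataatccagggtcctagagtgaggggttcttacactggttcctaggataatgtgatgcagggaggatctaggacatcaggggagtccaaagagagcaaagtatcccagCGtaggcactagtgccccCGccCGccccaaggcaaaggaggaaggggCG

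The motif searched was CG, which reads the same on both strands. The window before Fis1-202 holds 18 CpG, or 0.683 of the number its C and G content would give, and 72.0% of the 32848 windows of this length in the table lie below that ratio. The window before Fis1-201 holds 5, a ratio of 0.300, with 42.8% of windows below it, and the median window has 0.374. This describes the letters only.

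The libraries held 35098487 (animal 1) and 37428588 (animal 2) expected counts, and each of the 8 genes was measured from 387 counts or more. Levels are given as deposited TPM (the abundance of a transcript as a share of all RNA, corrected for its length and scaled to a fixed total) from the first of 2 quantifications, with the second, a separate table of estimated counts and TPM, beside it where it differs. Of all TPM, mitochondrially encoded RNAs took 24.1% in animal 1 against 18.3% in animal 2, and the small cytosolic RNA Rn7s took 26.6% and 29.8%, so the TPM of every other gene is lower than it would be among messenger RNAs alone (Mfn2 would stand at 340 and 397 TPM among nuclear protein-coding genes). All 5 skeletal muscle fibre markers were detected and summed to 68008 and 70450 TPM in animals 1 and 2. The 4 fibroblast markers summed to 1021 and 615 TPM, of which Col1a1 held 864 and 469 TPM. The other fibroblast markers lay closer between the animals, as did Dcn at 127 and 119 TPM. The 4 endothelial markers summed to 33.8 and 42.7 TPM, the 4 tendon markers to 93.0 and 65.3 TPM, the 4 macrophage markers to 11.4 and 10.6 TPM, and the 4 adipocyte markers to 4.64 and 2.00 TPM. Of the tendon sum, Fmod held 67.3 and 41.8 TPM. The 4 erythroid markers summed to 562 and 516 TPM. Of the 4 cardiomyocyte markers only Myh6 passed 1 TPM, and Nppa was listed at 0 in both libraries. Myh6 had 58.5 and 78.2 TPM in animals 1 and 2, against 26.8 and 33.9 TPM in the second quantification. In bulk tissue, fewer cells of a type and less RNA per cell cannot be told apart.

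All 8 genes were above the middle of the transcriptome, and the outer membrane fusion gene Mfn2 stood highest among them. Their median was 34.9 TPM in animal 1 and 39.8 TPM in animal 2, whereas the 9937 nuclear protein-coding genes detected at 1 TPM or more in both animals had medians of 6.54 and 7.05 TPM. Even Oma1, the lowest, was above 59.6% of those genes in animal 1 and above 54.6% in animal 2. The levels ran over a range from Mfn2 through Mfn1, Fis1, Mff, Opa1, Dnm1l and Yme1l1 to Oma1, in the same order in both animals and in both quantifications.

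**Figure D1:**
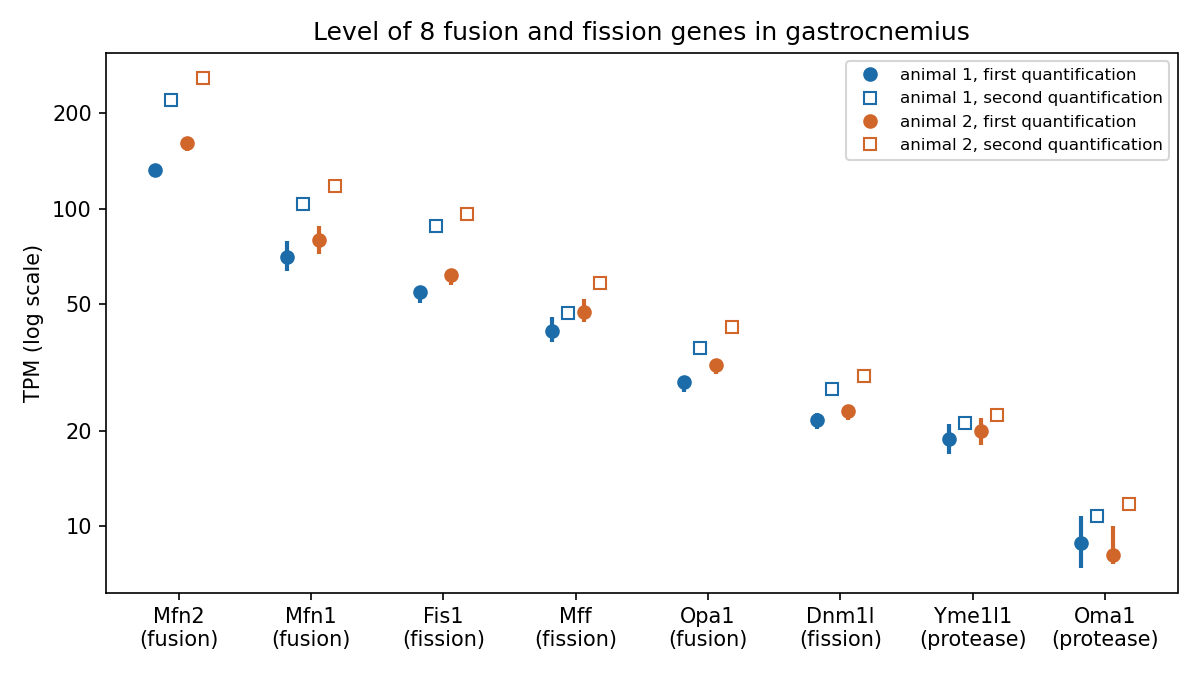
TPM of each gene on a log axis, with its role under the symbol. Filled circles show the first quantification and open squares the second, blue for animal 1 and orange for animal 2, and bars show the deposited interval of the first quantification, whose level is not stated. Mfn2 lies at 132 and 161 TPM in animals 1 and 2 and Oma1 at 8.83 and 8.13 TPM, and the second quantification lies above the first for every gene.

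Among the outer membrane fusion genes, Mfn2 (ENSMUSG00000029020.13, chr4:147873599-147904704, minus strand, mm10) had 132 TPM in animal 1 and 161 TPM in animal 2, or 147 ± 20.6 TPM (SD, n = 2). It was above 96.8% and 97.2% of detected nuclear protein-coding genes. The deposited intervals, whose level is not stated, ran between 126 and 134 TPM in animal 1 and between 153 and 164 TPM in animal 2, so the animals did not overlap. Mfn1 (ENSMUSG00000027668.13, chr3:32529465-32579239, plus strand) had 70.4 TPM in animal 1 and 79.6 TPM in animal 2, or 75.0 ± 6.50 TPM. Its intervals, 63.6 to 79.0 TPM and 72.0 to 88.2 TPM, overlapped between the animals.

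Opa1 (ENSMUSG00000038084.16, chr16:29579334-29654884, plus strand), the inner membrane fusion GTPase, had 28.4 TPM in animal 1 and 32.2 TPM in animal 2, or 30.3 ± 2.69 TPM (SD, n = 2). It was the least abundant of the 3 fusion GTPases in both animals. Of the proteases that cut its product, Yme1l1 (ENSMUSG00000026775.9, chr2:23156369-23199260, plus strand), whose protein acts from the intermembrane space side, had 18.9 and 19.9 TPM in animals 1 and 2, or 19.4 ± 0.742 TPM. Oma1 (ENSMUSG00000035069.3, chr4:103313812-103371868, plus strand), whose protease is known to be activated when the membrane potential falls, had 8.83 and 8.13 TPM, or 8.48 ± 0.495 TPM. The animals' intervals overlapped for both proteases. Oma1 was the only one of the 8 genes with the higher TPM in animal 1, and in the second quantification it had 10.8 TPM in animal 1 and 11.8 TPM in animal 2.

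Among the division genes, Fis1 and Mff were above the GTPase gene Dnm1l. Fis1 (ENSMUSG00000019054.13, chr5:136953275-136966234, plus strand) had 54.7 TPM in animal 1 and 62.0 TPM in animal 2, or 58.4 ± 5.12 TPM (SD, n = 2). Mff (ENSMUSG00000026150.14, chr1:82724890-82752394, plus strand) had 41.3 and 47.4 TPM, or 44.4 ± 4.34 TPM. Dnm1l (ENSMUSG00000022789.15, chr16:16312230-16358959, minus strand) had 21.7 and 23.1 TPM, or 22.4 ± 1.00 TPM, the closest pair of values among the division genes. Its relatives Dnm1 and Dnm3, dynamins best known from neurons that could share reads with it, had 2.81 and 2.16 TPM in animal 1 and 2.33 and 1.85 TPM in animal 2.

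The order of neighbours was set against their spread. No adjacent pair overlapped between the animals: the lower of the animals' values for Mfn2, 132 TPM, was above the higher value for Mfn1, 79.6 TPM, and so on down to Yme1l1, whose lower value of 18.9 TPM was above the higher Oma1 value of 8.83 TPM. With 2 animals no exact two-sided test can give a p below 0.5, so none is given. The ratio of neighbouring mean TPM was largest between Yme1l1 and Oma1, at 2.29, and between Mfn2 and Mfn1, at 1.96. It was smallest between Dnm1l and Yme1l1, at 1.15. Within each library the deposited intervals of neighbours were apart except those of Dnm1l and Yme1l1, at 20.2 to 22.8 TPM and 16.9 to 20.9 TPM in animal 1 and 21.7 to 24.2 TPM and 18.0 to 21.9 TPM in animal 2. Set across the animals, those of Mfn1 and Fis1 and of Fis1 and Mff overlapped too.

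Which transcript models are counted moved some of these positions. TPM was also summed over the coding models holding at least 0.5 of the gene's longest coding sequence. These are called the longer coding models, and some of them, such as Opa1-207, are incomplete. By that sum Mfn1 had 37.7 TPM in animal 1 and 44.2 TPM in animal 2. Fis1 had 54.4 and 60.5 TPM, so that Fis1 stood above Mfn1. Mfn1 has 10 annotated models, 5 of them with a retained intron, and much of its TPM was placed on short or incomplete ones. The second quantification gave higher TPM for every gene, between 1.12 times the first for Yme1l1 and 1.63 times for Mfn2, in the mean over the 2 animals. Mfn2 there had 220 TPM in animal 1 and 259 TPM in animal 2.

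Ratios within a library do not depend on its depth or on the share of mitochondrial RNA. On the log2 scale of TPM, Mfn2 over Mfn1 was 0.91 in animal 1 and 1.02 in animal 2 (0.96 ± 0.078, SD, n = 2). With the longer coding models it was 1.70 and 1.71. Opa1 over Mfn2 was −2.22 and −2.32 (−2.27 ± 0.075). Mff over Fis1 was −0.41 and −0.39 (−0.40 ± 0.015) in the first quantification, but −0.91 and −0.73 in the second. Dnm1l over Mff was −0.93 and −1.04 (−0.98 ± 0.077). Oma1 over Yme1l1 was −1.10 and −1.29 (−1.20 ± 0.14). Each of these 5 ratios kept its sign in both animals and both quantifications.

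Summed over the members of each role, the fusion GTPase genes held more RNA than the division genes, and this rested on Mfn2. Mfn1, Mfn2 and Opa1 together had 231 TPM in animal 1 and 273 TPM in animal 2, or 252 ± 29.8 TPM (SD, n = 2). Dnm1l, Fis1 and Mff together had 118 and 133 TPM, or 125 ± 10.5 TPM, and the proteases 27.7 and 28.1 TPM. The division sum was 0.510 of the fusion sum in animal 1 and 0.485 in animal 2, a log2 ratio of −1.01 ± 0.050. Mfn2 alone made up 35.1% and 37.2% of the TPM of the 8 genes, and its 132 and 161 TPM were above the division sum. Without Mfn2, the fusion sum would lie below the division sum in both animals. The fission partners described below, which summed to 128 and 144 TPM, and the outer membrane partners, at 72.7 and 83.1 TPM, were in neither sum. Measured against Cs, the citrate synthase gene often used as a marker of mitochondrial content, with 212 TPM in animal 1 and 239 TPM in animal 2, Mfn2 stood at 62.5% and 67.6%, Opa1 at 13.4% and 13.5%, and Dnm1l at 10.2% and 9.68%.

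The RNA of Opa1 was divided among 4 coding models in both animals. Opa1-206, which holds neither alternative exon and encodes 960 residues, took 49.6% of the gene's TPM in animal 1 and 49.0% in animal 2, and 46.2% and 45.5% in the second quantification. Opa1-207, an incomplete model which holds the 111-base exon alone, took 18.4% and 17.3%, against 23.1% and 21.8% in the second quantification. Opa1-201, which holds the 54-base exon alone and encodes 978 residues, took 12.1% and 11.3%, against 22.5% and 22.2% in the second quantification. Opa1-208, an incomplete model of 888 bases with both exons, took 17.5% and 20.3% from 113 and 158 counts, where the second quantification gave 6.18% and 8.17%. The leading form was therefore the same in both animals and both tables, and the form with both exons was the one whose share the tables placed furthest apart in ratio.

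**Figure D2:**
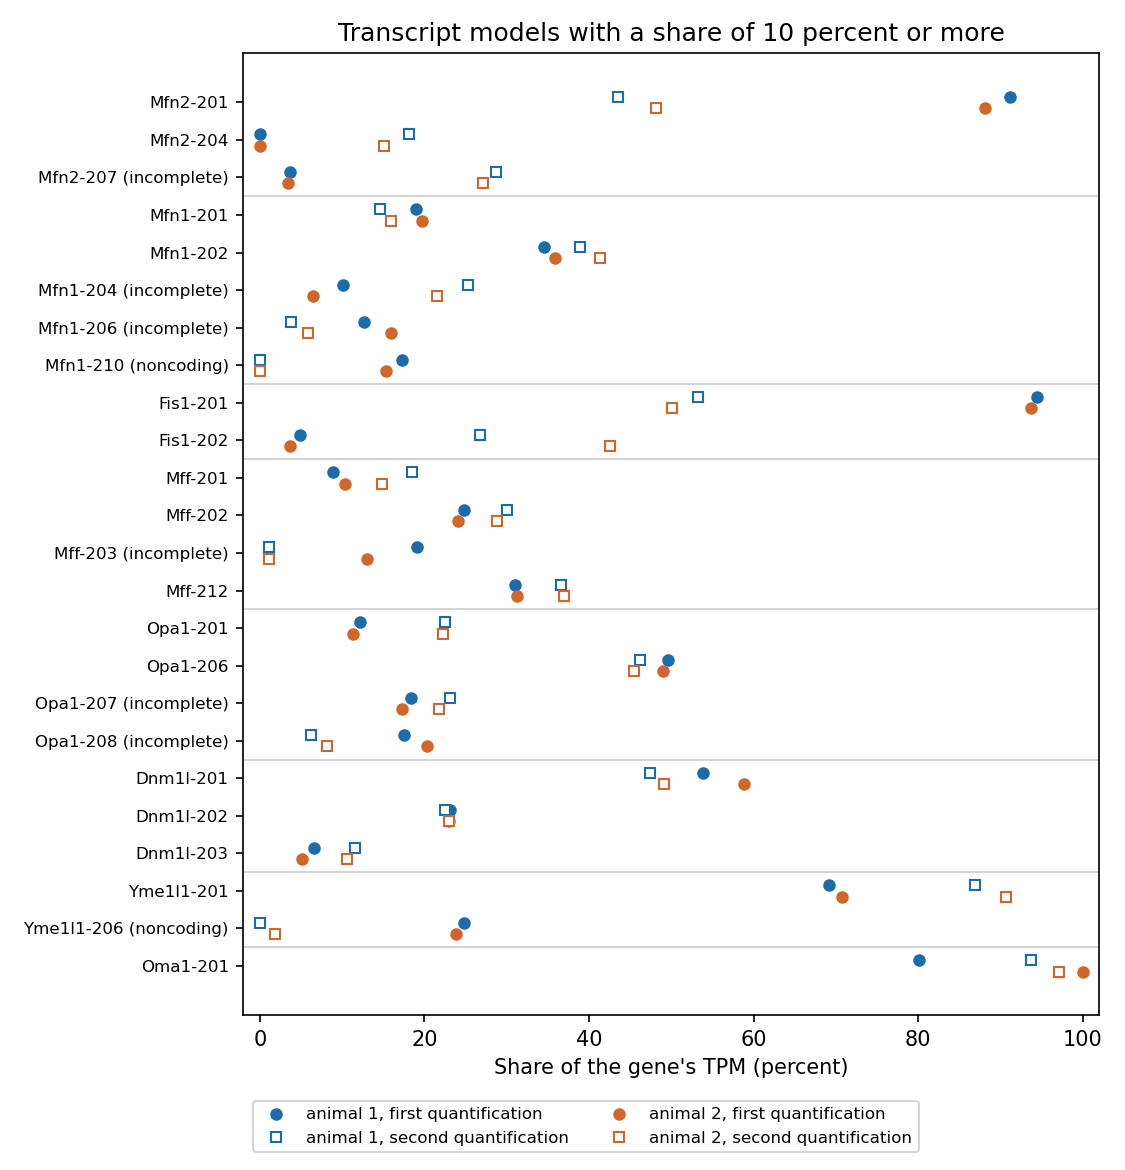
Share of each gene's TPM taken by transcript models with 10% or more in both animals in either quantification, with genes from top to bottom in order of level. Filled circles are the first quantification and open squares the second, blue for animal 1 above orange for animal 2. Opa1-206 lies between 45.5% and 49.6% in all 4 measurements, whereas Mfn2-201 lies at 91.1% and 88.1% in the first quantification and 43.5% and 48.1% in the second.

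The inclusion of an exon was computed as the TPM of the models holding it over that of the models holding or skipping it. The 54-base exon of Opa1 had an inclusion of 30.3% in animal 1 and 32.4% in animal 2, a mean of 31.4% ± 1.45 (SD, n = 2). The 111-base exon, whose product YME1L cuts, was included in 36.7% and 37.7%, or 37.2% ± 0.702. Most Opa1 RNA by this measure skipped each of them, and the animals differed by little. Both values moved with the models counted. With the longer coding models, which leave out Opa1-208, inclusion of the 54-base exon was 15.2% and 14.5%. That of the 111-base exon was 22.9% and 22.3%. By expected counts the values were 12.8% and 13.1%, and 17.0% and 16.8%, in the same order. In the second quantification, where Opa1-208 had a smaller share, the 54-base exon stayed at 29.2% and 31.1%. The 111-base exon stood there at 29.7% and 30.1%. Under every setting tried, the 111-base exon was skipped more often than included in both animals, and so was the 54-base exon.

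Dnm1l was read mainly as the form without any of the 3 alternative exons. Dnm1l-201, which encodes 699 residues, took 53.8% of the gene's TPM in animal 1 and 58.9% in animal 2, and 47.4% and 49.1% in the second quantification. Dnm1l-202, which differs from it by the 39-base exon in the GTPase domain and encodes 712 residues, took 23.1% and 23.0%, and 22.5% and 23.0% in the second quantification. The inclusion of the 39-base exon was 23.6% in animal 1 and 23.1% in animal 2 (23.4% ± 0.356, SD, n = 2), and it stayed between 22.9% and 25.9% under the other settings. The 78-base exon of the variable domain was included in 7.17% and 5.44% (6.30% ± 1.23) and the 33-base exon in 16.3% and 12.8% (14.6% ± 2.50). The second quantification gave 11.9% and 10.7% for the 78-base exon and 27.8% and 26.6% for the 33-base exon, so their level, unlike that of the 39-base exon, was not fixed by these tables.

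Mff was divided among several forms. Mff-212, the longest with 316 residues and the only model with both exons shown above, took 31.0% of the gene's TPM in animal 1 and 31.3% in animal 2. Mff-202, with 291 residues and without the 75-base exon, took 24.8% and 24.1%. The 159-base exon was included in 80.1% and 76.8% (78.5% ± 2.33, SD, n = 2) and the 75-base exon in 35.0% and 38.0% (36.5% ± 2.15). Of the other cassette exons, one of 60 bases was included in 96.5% and 93.0% and one of 33 bases in 6.53% and 8.65%. In the second quantification that 33-base exon stood at 6.02% and 9.84%. It fell to 1.87% and 1.82% with the longer coding models and to 2.08% and 2.88% by expected counts. The incomplete model Mff-203, 440 bases long, took 19.1% and 13.0% from 77 and 64 counts, against 1.09% in both animals in the second quantification. With the longer coding models, which leave out Mff-203, the 75-base exon stood at 45.2% and 47.4%.

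**Figure D3:**
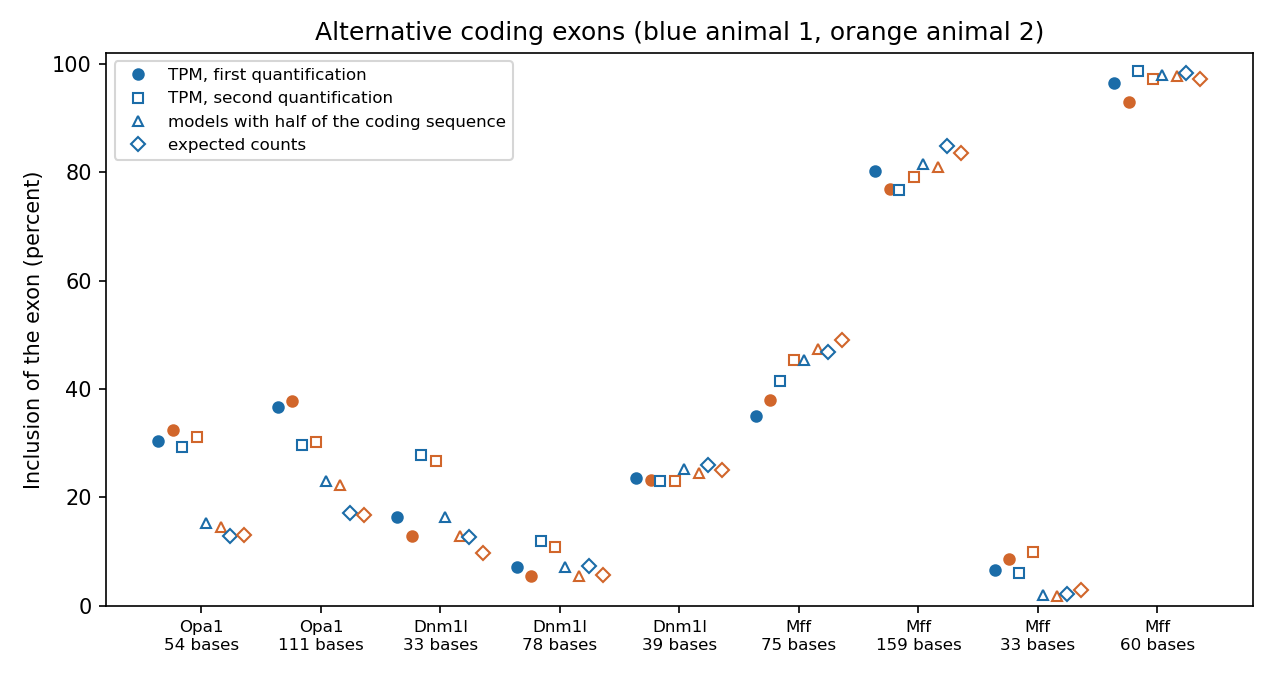
Inclusion, in percent, of 9 alternative coding exons of Opa1, Dnm1l and Mff, each named by its length, with blue for animal 1 and orange for animal 2. Marker shapes show the 4 ways of computing it. The 39-base exon of Dnm1l lies between 22.9% and 25.9% in every marker, whereas the 54-base exon of Opa1 lies between 12.8% and 32.4%.

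For the remaining 5 genes, the leading model was the same in both tables and both animals. Except for Oma1, its share in the second table lay outside the range of the animals in the first. Mfn2-201 and Mfn2-204 encode the same length of 757 residues. The first quantification gave Mfn2-201 91.1% in animal 1 and 88.1% in animal 2 and Mfn2-204 0% in both, whereas the second gave Mfn2-201 43.5% and 48.1% and Mfn2-204 18.1% and 15.1%. Mfn2-207, an incomplete coding model of 97 residues, took 3.62% and 3.43% in the first table and 28.8% and 27.1% in the second. Mfn1-202 and Mfn1-201, both of 741 residues, took 34.5% and 19.0% in animal 1 and 35.8% and 19.8% in animal 2. The incomplete models Mfn1-204 and Mfn1-206 moved in opposite directions between the tables: Mfn1-204 took 10.2% and 6.45% in the first and 25.2% and 21.5% in the second, and Mfn1-206 took 12.7% and 15.9% in the first and 3.82% and 5.84% in the second. Mfn1-210, a retained-intron model of 246 bases, took 17.2% and 15.4% of Mfn1 TPM from only 51 and 55 counts, and it had 0% in the second quantification. Yme1l1-201, the coding model of 715 residues, took 69.2% and 70.7%, and the noncoding Yme1l1-206 took 24.8% and 23.9%, against 0% and 1.85% in the second table. Oma1-201, of 521 residues, took 80.1% in animal 1 and 100% in animal 2, and 93.8% and 97.1% in the second table.

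Fis1 has 6 annotated models, of which Fis1-201 and Fis1-202 begin at the starts shown above. Fis1-201, of 152 residues, begins behind the window with 5 CpG and took 94.5% of the gene's TPM in animal 1 and 93.7% in animal 2. Fis1-202, of 145 residues, begins behind the window with 18 CpG and took 4.91% and 3.63%. In the second quantification Fis1-201 had 53.2% and 50.1% and Fis1-202 had 26.8% and 42.6%. Fis1-201 was the larger in both animals and both tables, and the size of its lead was not fixed by them.

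The animals were then compared as libraries, by an exact conditional binomial test of the rounded expected counts after TMM scaling, with Benjamini-Hochberg adjustment over 14754 genes. The test sets 1 library against the other and its error is counting error alone. A gene was called where its adjusted p was under 0.05 and the libraries differed more than 2-fold. None of the members was called (0 of 8), against 265 genes or 1.80% of those tested. By adjusted p alone 2 of 8 passed, against 14.4% of all genes tested. Both were lower in animal 1, as were 6.64% of all genes tested, and none was higher, against 7.74%. The 2 genes were the mitofusins, which have the most counts of the 8.

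Mfn2 had 450 CPM (scaled counts over the library total) in animal 1 and 490 in animal 2, a log2 ratio of −0.12 or a fold of 1.09 (adjusted p = 9.65e-14, exact binomial test). Mfn1 had 120 and 129 CPM, a log2 ratio of −0.10 or a fold of 1.07 (adjusted p = 0.00736, exact binomial test). Mff had the same size of ratio, −0.10, from fewer counts, 1721 in animal 1 and 2118 in animal 2, and did not pass (adjusted p = 0.169), although it did with spike-in scaling (adjusted p = 0.0399) and total-count scaling (adjusted p = 1.03e-04, exact binomial test). The ratios of the other 5 lay between −0.05 for Fis1 and 0.02 for Yme1l1, with adjusted p between 0.498 and 0.970. The median size of the log2 ratio was 0.044 over the 8 genes, against 0.144 over all genes tested and 0.090 over 5967 nuclear protein-coding genes at a mean of 5 TPM or more. Beside these values, mitochondrially encoded RNA and fibroblast markers were higher in animal 1, with Col1a1 at a log2 ratio of 1.01. By adjusted p alone, 4 of the 5 muscle fibre markers were also higher in animal 1 and none lower. Their median log2 ratio of scaled counts was 0.11, although their summed TPM was lower in animal 1. Of the 4 endothelial markers, 2 were lower and none higher. The sums of the marker lists are given above. The part of any of these in the mitofusin values was not tested.

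**Figure D4:**
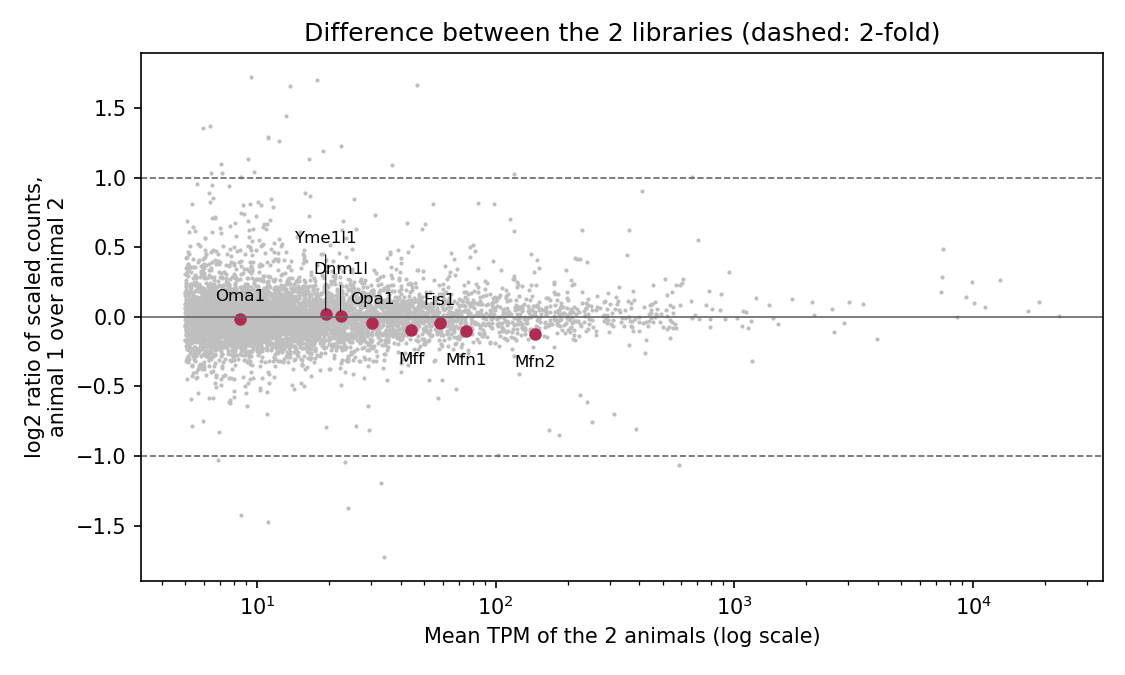
Log2 ratio of scaled counts, animal 1 over animal 2, against mean TPM on a log axis. Grey points are 5967 nuclear protein-coding genes at a mean of 5 TPM or more, red points the 8 genes, and dashed lines mark 2-fold. The 8 genes lie between −0.12 and 0.02, close to the zero line.

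The ratio of deposited TPM lay further from 0 than that of scaled counts for all 8 genes, and its median over the genes tested was −0.11. Relative to that shift, 6 of the 8 were still further from 0 than by scaled counts, with Mfn2 at −0.17, Oma1 at 0.23, Opa1 and Fis1 at −0.07, Yme1l1 at 0.03 and Dnm1l at 0.02. Mfn1 at −0.06 and Mff at −0.09 were nearer to 0. Oma1 differed most between the measures, and its scaled counts gave −0.02. In animal 1 19.9% of Oma1 TPM was placed on noncoding models, against 0% in animal 2, from 4.27% and 0% of its counts. Scaling by total counts moved the median of all genes by a similar amount, to −0.11, and all 8 genes were then lower in animal 1, between −0.23 for Mfn2 and −0.09 for Yme1l1.

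Genes that overlap the members on the map were themselves given few counts. Gm13156, on the other strand within Mfn2, had 1 count in animal 1 and 0 in animal 2. Gm49521, antisense to Dnm1l, had 2 in each. C430014B12Rik, on the other strand at Mff, had 1 and 6 counts, and Gm28941, within Mff on the same strand, had 17 and 14. Whether strand was used in counting is not given in the sources used here, so reads of antisense partners may be included in the members.

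The partners of the 8 genes were described from 5 lists of 43 genes, 42 of which matched the annotation and 39 of which were detected in both animals. The fission partners were mostly below the members, with a median of 6.69 TPM in animal 1 and 8.03 TPM in animal 2 over 10 genes. The most abundant was Mtfr1l, a relative of the fission regulator MTFR1, with 42.5 and 47.0 TPM. Mief2, which encodes a further outer membrane receptor for DRP1, had 27.0 and 28.9 TPM, above Dnm1l in both animals. Mief1, of the same list, had 6.3 and 7.62 TPM, below Dnm1l in both animals. Mtfp1, an inner membrane fission protein, had 17.8 and 24.2 TPM, and Dnm2, a ubiquitous dynamin, had 15.1 and 15.6 TPM. The 9 outer membrane partners had medians of 6.81 and 8.93 TPM, led by the ubiquitin ligase genes March5, with 24.4 and 28.4 TPM, and Mul1, with 15.0 and 16.8 TPM. Pld6, a phospholipase of the outer membrane, was listed at 0 in both animals.

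The list of inner membrane proteases and partners and that of cristae junction genes had higher medians than the fission and outer membrane partners. The 10 genes of proteases and their partners had medians of 27.8 TPM in animal 1 and 32.9 TPM in animal 2. Chchd10, an intermembrane space protein known from human muscle and motor neuron disease, had 470 and 512 TPM and its relative Chchd2 had 197 and 229 TPM. The prohibitin genes Phb and Phb2, whose ring complexes hold back OPA1 cleavage, had 63.4 and 53.1 TPM in animal 1 and 70.1 and 61.4 TPM in animal 2. Stoml2 had 31.2 and 38.5 TPM and the matrix-facing protease gene Afg3l2 had 24.4 and 27.3 TPM. The cristae junction genes, 9 of 10 matched, had medians of 59.6 and 66.9 TPM. Immt, which encodes the core MICOS subunit at cristae junctions, had 98.5 and 115 TPM, Chchd3 had 121 and 154 TPM and Minos1 had 132 and 165 TPM.

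The 4 transport genes, whose proteins link mitochondria to microtubule motors, had medians of 22.0 and 27.8 TPM. Trak1 had 65.4 TPM in animal 1 and 75.4 TPM in animal 2, and the GTPase genes Rhot2 and Rhot1 had 22.0 and 13.7 TPM in animal 1 and 21.3 and 15.8 TPM in animal 2. Over the 5 lists, none of 40 genes tested passed the call past 2-fold. By adjusted p alone 9 were lower and 1 higher in animal 1, against the 6.64% and 7.74% of all genes given above. A gene with more counts passes at a smaller ratio, so these shares depend on counts too. Chchd2 passed at −0.10 from 4653 and 5723 counts in animals 1 and 2. March5, at −0.09 from 1182 and 1446 counts, did not. The largest ratio of the 9 was that of Trak2, a transport adaptor gene, with 21.9 TPM in animal 1 and 34.4 TPM in animal 2 and a log2 ratio of scaled counts of −0.44 (adjusted p = 1.28e-39, exact binomial test). Among the fission partners only Mtfp1 was lower by adjusted p, at −0.29 (adjusted p = 9.30e-04, exact binomial test). The gene higher in animal 1 was Inf2, an actin-assembling formin, at 0.39 (adjusted p = 0.00124), with 4.85 and 4.04 TPM. The 6 reference genes of mitochondrial mass had 3 lower and none higher by the same rule, with Cs at a log2 ratio of −0.05.

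**Figure D5:**
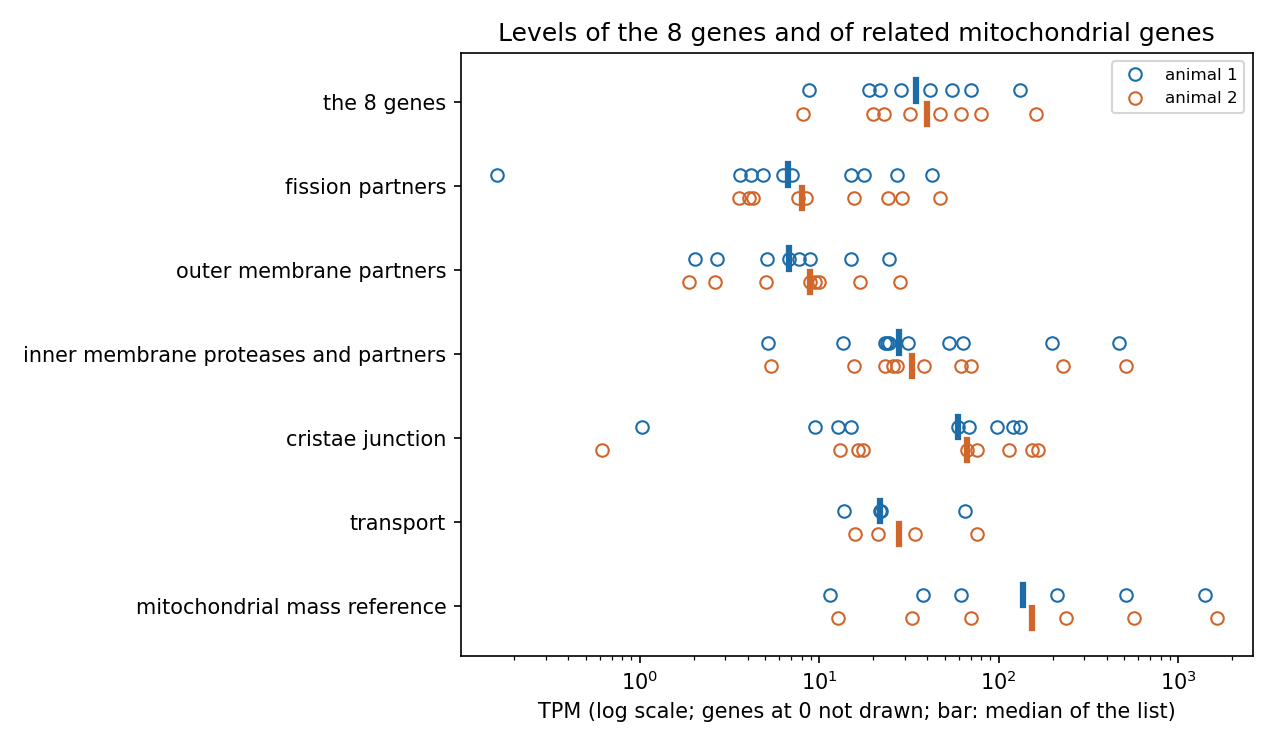
TPM on a log axis of the 8 genes, of the 5 lists of partners and of the mitochondrial mass reference, with 1 circle per gene, blue for animal 1 above orange for animal 2, and a bar at the median of each list. Genes listed at 0 are not drawn. The median of the 8 genes, 34.9 and 39.8 TPM in animals 1 and 2, lies above those of the fission and outer membrane partners and below that of the cristae junction genes, 59.6 and 66.9 TPM.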

How the data were processed

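Total RNA-seq libraries of 2 male B6Cast F1 mice were analysed as 1 group, by the labels. Expected counts, TPM and the percent of a gene's TPM per transcript model were computed by the authors, per the file headers, as were posterior mean TPM and other bounds of an interval of unstated level. The second deposited transcript table holds estimated counts and TPM, which were summed to genes here. The accompanying descriptions name mm10 and GENCODE M21, while tools, their versions and the use of strand are not stated there or in the labels.

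Of 81881 deposited entries, 26248 named only by a number were left out; they held 1 count in animal 1. Expected counts were rounded, scaled by TMM (edgeR 4.0.16, R 4.3.3) and compared by a two-sided exact conditional binomial test (scipy 1.17.1) over genes with 20 or more counts in both libraries together, with a prior count of 0.5 for ratios. Its p-values cover counting error only, and reads lacking molecular identifiers are not separate molecules. The test was checked on simulated counts that held counting error alone, so that check does not cover variation between animals. DESeq2 1.42.0 size factors, total and spike-in counts, no count filter, the second table and posterior means were alternatives. The alternatives on exon inclusion and on the longer coding models were chosen after seeing the data.

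The members and gene lists were chosen with earlier results of these data known. Named were all members, transcript models with 10% or more of their gene in both animals in either table, and up to 6 genes per list at 10 TPM or more. Dnm1, Dnm3, Pld6, Inf2, Mief1, Mtfr2, Myh6, Nppa, Rn7s, the genes overlapping members and the Mff exons outside the isoform rule were named after their values were seen. One list symbol matched no gene. One marker list, whose level differed between the animals, is not reported here.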

Additional observations from a re-analysis of the deposited data

How the results depend on the processing

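No paired analysis was possible because the series has 1 group, and leaving out a library ends the comparison of libraries, which needs both. With 2 animals, leaving one out gives the other's value, which is no test of stability: Mfn2 over Mfn1 ran between 0.91 and 1.02 (log2), Opa1 over Mfn2 between −2.32 and −2.22, Oma1 over Yme1l1 between −1.29 and −1.10, Mff over Fis1 between −0.41 and −0.39, Dnm1l over Mff between −1.04 and −0.93, and fission over fusion between −1.04 and −0.97.

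In the mean of both animals, the second quantification gave log2 ratios of 1.11 for Mfn2 over Mfn1, −2.60 for Opa1 over Mfn2, −0.96 for Oma1 over Yme1l1, −0.82 for Mff over Fis1, −0.88 for Dnm1l over Mff and −1.17 for fission over fusion. The longer coding models gave 1.70, −2.48, −0.84, −0.92, −0.54 and −0.87 in the same order, and posterior means gave −0.36 for Mff over Fis1. Inclusion of the 54-base Opa1 exon was 30.2% in the second quantification, 14.8% with those models and 12.9% by counts. That of the 111-base exon was 29.9% in the second quantification, 22.6% with those models and 16.9% by counts. For Dnm1l, the 33-base exon was at 27.2% in the second quantification and 11.1% by counts, the 78-base exon at 11.3% in the second quantification, and the 39-base exon at 23.0%, 24.8% and 25.5% in the second quantification, with those models and by counts.

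Total-count scaling took the members past the adjusted p alone to 5 (Opa1, Fis1 and Mff gained) and spike-in scaling to 3 (Mff gained), against 2 with TMM. Without a count filter 1 list gene passed the call, Mtfr2, with 8 counts in animal 1 and 0 in animal 2. Sign changes occurred only in ratios near 0: Oma1 at 0.12 by TPM; Yme1l1 at −0.092 by total counts, −0.014 by spike-ins and −0.078 by TPM; Dnm1l at −0.10, −0.024 and −0.091 by the same 3, and −0.0041 in the second quantification. The cause was not tested.

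With 2 animals, the spread is poorly known, and short or incomplete models rest on few counts.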
